A study of Homo sapiens with 12 samples.

Results

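The protein-coding genes of human chromosome 13 were compared in SKOV3 and SKOV3/DDP, both ovarian cancer cells in culture, each with and without paeonol (PAE). The members were the rows that the deposited tables place on chromosome 13 of GRCh38 with the biotype protein_coding. Of 329 such rows, 11 were left out by name, which were 8 named genes and the genes whose symbols start with RPL or MRP, so 318 members remained of 46350 named genes. The chromosome was chosen because its genes had already been seen to differ between the lines in these libraries. Differences between the lines are therefore given as a description. Where the number of members past an edgeR threshold is printed for them, it stands beside the share of all tested genes and nothing is read from it. In contrast, the effects of PAE within each line, which did not enter that choice but share libraries with it, were tested. The difference of the PAE effect between the lines equals the line difference with PAE minus the untreated one. It is thus made of the differences that the chromosome was chosen on, and its counts are also given as a description.

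The data are RNA-seq read counts per gene of 12 libraries, 3 from each of 4 groups. Both lines were measured untreated and after treatment with PAE, and grown in RPMI-1640 medium with serum. The labels call SKOV3 a cisplatin-sensitive and SKOV3/DDP a cisplatin-resistant line of human epithelial ovarian cancer, and the study's methods describe SKOV3/DDP as a stable chemoresistant line obtained from SKOV3. PAE is a phenolic compound of peony root, and its dose and time are not given in the labels. There is 1 line of each kind, so a difference between the lines is a difference between these cultures and not between resistant and sensitive tumours in general. The design text speaks of biological triplicates, and the p-values measure the spread between these libraries.

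Chromosome 13 is an acrocentric chromosome, whose short arm holds repeated ribosomal RNA genes and whose protein-coding genes lie on the long arm. It is among the gene-poor autosomes and is rich in A and T. Whole-arm and segmental gains and losses of it are well known in carcinomas, and the number of copies of a chromosome commonly shifts the RNA of many of its genes together. RNA counts alone do not measure copy number, and no DNA data were used here.

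Library totals lay between 14610008 and 18263479 counts. The 3 untreated SKOV3 libraries stood apart from the other 9 by base composition. Each gene's log2 level minus its mean over the 12 libraries rose with its GC content in untreated SKOV3, with Spearman correlations of 0.693 to 0.701, whereas they were −0.566 to −0.343 in the remaining libraries. These are correlations across 13703 coding genes, not across replicates. At least 1 count was found for 197 to 205 members per untreated SKOV3 library and for 225 to 236 per library elsewhere. Members are poor in GC, with a median of 42.2% against 49.3% for the tested coding genes of the other autosomes, so the differences are described as fitted and relative to other-autosome genes of like GC content. The epithelial keratins KRT8 and KRT18 were abundant in all groups. Of the others on a list of 8 epithelial markers, EPCAM was at 1.26 CPM in untreated SKOV3 and 289 CPM in untreated SKOV3/DDP. CDH1 (7.63 and 442 CPM), KRT19 (7.66 and 1349 CPM), CLDN3 (0.113 and 15.7 CPM) and CLDN4 (20.2 and 193 CPM) were also higher in untreated SKOV3/DDP. KRT7 went the other way, as given below. A list of 11 Müllerian and ovarian epithelial markers summed to between 441 and 527 CPM in untreated SKOV3 and to between 377 and 478 CPM in untreated SKOV3/DDP, with SOX17 at 0 in all groups, but its members differed. PAX8 had a mean of 29.7 CPM (counts scaled to the library's size with TMM factors) in SKOV3 and 4.13 CPM in SKOV3/DDP, while WFDC2 (307.8 CPM in SKOV3) had no count in SKOV3/DDP and MSLN (149 and 388 CPM) and FOLR1 (0.118 and 36.0 CPM) were higher in SKOV3/DDP. The keratin KRT7 was at 3607 and 1.22 CPM. A list of 11 intestinal epithelial markers summed to between 0.263 and 1.11 CPM in the 6 SKOV3 libraries and to between 144 and 496 CPM in the 6 SKOV3/DDP libraries, led by CDH17. Of the 11, 6 had a mean above 1 CPM in untreated SKOV3/DDP and 5 with PAE. KRT20 (0.209 and 0.0183 CPM), MUC2 (0.125 and 0.0660 CPM) and FABP1 (0 and 0.0157 CPM) were near 0 there, and TFF3 had no count in any library. Endothelial markers summed to at most 10.6 CPM, with CDH5 and KDR at 0 in all groups, and immune markers to between 64.5 and 73.4 CPM in untreated SKOV3, nearly all from CD14, to between 23.6 and 40.6 CPM with PAE, and to at most 4.10 CPM in SKOV3/DDP. Fibroblast markers summed to at most 30.2 CPM.

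Of the 318 members, 211 (66.4%) had enough counts to be tested, against 13083 of 18397 (71.1%) coding genes of the other 21 autosomes. Values written with ± are the mean and SD of the 3 libraries of a group. Among the 107 that were not tested, 38 had no count in any library. A member that passed this filter only because it was high in 1 line had to differ between the lines, and 11 tested members had no count in either group of 1 of the lines. No share of all tested genes stands beside these 11, and nothing is read from their number. GC content was known for 209 of the 211. In cultures measured in bulk, fewer cells with a transcript and less of it in each cell cannot be told apart.

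To give the sequence context of some members that separated the lines widely, the 150 bases before the transcription start of 4 of them are shown, 2 that were at or near 0 in SKOV3 (SLC46A3 and DNAJC15) and 2 that were at or near 0 in SKOV3/DDP (SPART and DZIP1). These 4 were picked after their values were seen. PDX1 and FLT1, which ranked highest by the rule for named genes, are not shown, and SPART was not ranked by it. They were taken from RefSeq on GRCh38.p14 and are written 5′ to 3′ on the gene's strand, with each CG, the dinucleotide at which promoters can be methylated, in capitals. A promoter entry was found for 280 of the 318 members.

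SLC46A3 (chr13:28718971-28719120, minus strand): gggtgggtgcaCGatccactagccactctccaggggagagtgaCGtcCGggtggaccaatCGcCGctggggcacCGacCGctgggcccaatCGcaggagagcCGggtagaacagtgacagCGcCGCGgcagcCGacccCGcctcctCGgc

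DNAJC15 (chr13:43023436-43023585, plus strand): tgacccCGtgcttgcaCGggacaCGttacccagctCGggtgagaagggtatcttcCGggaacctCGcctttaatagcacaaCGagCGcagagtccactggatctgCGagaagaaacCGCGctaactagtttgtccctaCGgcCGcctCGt

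SPART (chr13:36370181-36370330, minus strand): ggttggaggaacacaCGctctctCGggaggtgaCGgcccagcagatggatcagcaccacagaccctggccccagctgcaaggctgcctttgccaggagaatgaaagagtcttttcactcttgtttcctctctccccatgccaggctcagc

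DZIP1 (chr13:95644707-95644856, minus strand): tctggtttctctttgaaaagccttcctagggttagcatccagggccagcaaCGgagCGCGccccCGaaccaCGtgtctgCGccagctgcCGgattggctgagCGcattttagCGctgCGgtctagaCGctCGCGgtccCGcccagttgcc

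The letters CG occurred 15 times before SLC46A3, 14 times before DNAJC15, 14 times before DZIP1 and 3 times before SPART. At least 15 occurrences were found in 27.0%, at least 14 in 30.3% and at least 3 in 68.6% of 35116 RefSeq promoter windows of the same length, and at least 1 in 89.1%. The median was 15 over the 186 tested members with an entry, 7 over the 94 untested members with one and 7 over all windows. Of these genes at or near 0 in 1 line, SLC46A3, DNAJC15 and DZIP1 were thus at or next to the median of the tested members, and SPART was below it. The letters describe the reference sequence only, and methylation was not measured here.

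Transcripts of chromosome 13 made up a larger share of RNA in SKOV3/DDP than in SKOV3. Members held 0.286%, 0.307% and 0.330% of the autosomal protein-coding counts in the untreated SKOV3 libraries. In untreated SKOV3/DDP they held 2.32%, 2.48% and 2.43%. With PAE, the SKOV3 libraries had 1.28%, 1.03% and 1.23%, and the SKOV3/DDP libraries 2.66%, 2.88% and 2.71%. The libraries of the lines did not overlap within untreated or within PAE, and the lowest SKOV3/DDP share was above the highest of the 6 SKOV3 shares. The 95% Wilson intervals were narrow, the widest reaching from 2.87% to 2.89%, and these and all limits and counting intervals given further on cover counting error only. The low shares of untreated SKOV3 moved with its GC trend, whose part in them was not tested. TPT1, the translationally controlled tumour protein and the most abundant member, singled out here after its values were seen, took a large part of these counts. Without it, the shares were between 0.180% and 0.226% in untreated SKOV3 and between 1.92% and 2.0% in untreated SKOV3/DDP, and with PAE they were between 0.889% and 1.11% in SKOV3 and between 2.03% and 2.29% in SKOV3/DDP.

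The level relative to genes of like GC content separated the lines in the same order. For each library, the deviation of each tested member from its mean over 12 libraries was taken on the log2 scale, the median deviation of other-autosome genes in the same of 20 GC bins was subtracted, and the median over the members was kept. It was −0.68, −0.58 and −0.67 in untreated SKOV3 and −0.51, −0.51 and −0.57 in SKOV3 with PAE. It was 0.60, 0.58 and 0.58 in untreated SKOV3/DDP and 0.52, 0.52 and 0.58 in SKOV3/DDP with PAE. All 6 SKOV3 libraries were below 0 and all 6 SKOV3/DDP libraries above it, and untreated and treated libraries of a line lay close together. As means with their SD (n = 3 each), the log2 levels were −0.64 ± 0.056 and −0.53 ± 0.036 in SKOV3 without and with PAE, and 0.59 ± 0.014 and 0.54 ± 0.038 in SKOV3/DDP.

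**Figure D1:**
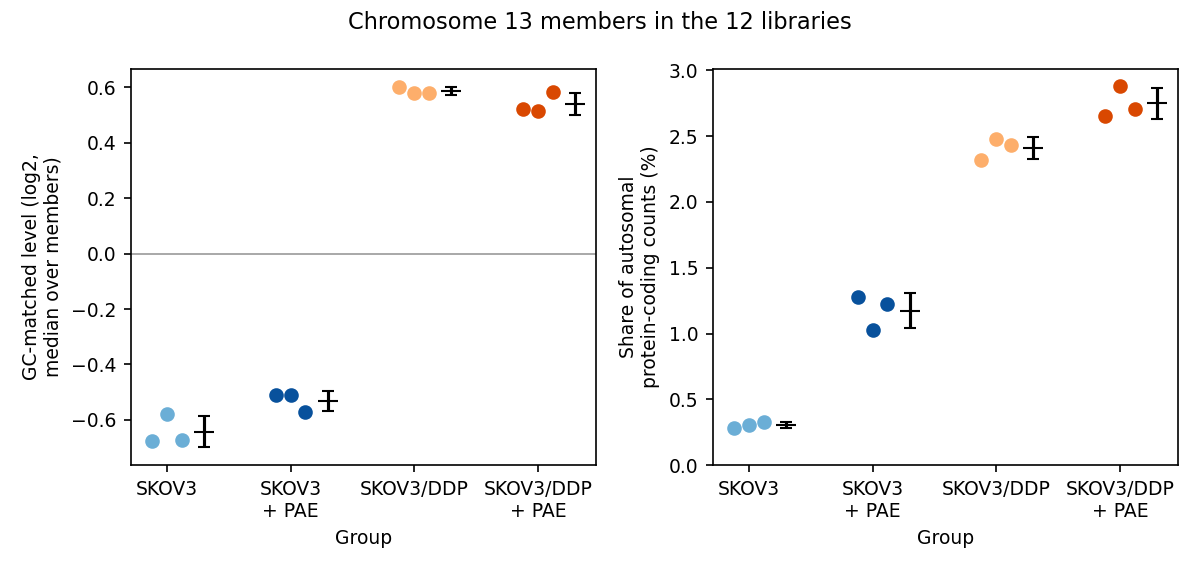
Level of the chromosome 13 members in each library, with the GC-matched median log2 level in the left panel and the share of autosomal protein-coding counts (%) in the right panel. Points are libraries of the 4 groups and bars are the mean ± SD of 3. The 6 SKOV3/DDP libraries lie above the 6 SKOV3 libraries in both panels, and the untreated SKOV3 libraries have a low share (0.286% to 0.330%) but a GC-matched level near that of SKOV3 with PAE.

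Between the untreated lines, the median member was higher in SKOV3/DDP by 3.41 on the log2 scale as fitted, against a median of 0.54 over all 17133 genes tested. Relative to other-autosome genes of like GC content, the median was 1.36, a fold of 2.58, with an interquartile range of 0.15 to 2.29, and 163 members were above 0 and 46 below. By edgeR, 186 of 211 members had an adjusted p under 0.05, 176 higher and 10 lower in SKOV3/DDP, where 81.8% of all tested genes passed, 45.8% as higher and 36% as lower. The libraries of the lines did not overlap for 179 members that were higher and 11 that were lower in SKOV3/DDP, and overlapped for 21 (46.5% and 36.7% of all tested genes did not overlap as higher and as lower). These counts describe the contrast that the chromosome was chosen on, and nothing is read from their excess over the background.

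The comparison with PAE in both lines uses none of the untreated libraries and carried almost no GC trend. Its median member was higher in SKOV3/DDP by 1.14 on the log2 scale, against 0.06 over all tested genes, and the GC-matched median was 1.08, a fold of 2.12 (interquartile range 0.19 to 1.91). Of the members, 164 were above 0 and 45 below. An adjusted p under 0.05 was found for 151 members, 132 higher and 19 lower, where 54.5% of all tested genes passed, 27.5% as higher and 27.1% as lower. The libraries did not overlap for 147 members as higher and 25 as lower (31.4% and 29.8% of all tested genes). Across the 209 members, the fitted difference followed GC content between the untreated lines (Spearman correlation −0.37) and hardly with PAE (0.06). This is a description across genes that share the same libraries.

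Individual members kept their direction in most cases. The GC-matched difference was above 0 in both comparisons for 139 members, below 0 in both for 21, and of opposite sign for 49. For 135 members all 3 SKOV3/DDP libraries were above all 3 SKOV3 libraries both without and with PAE (21.6% of all tested genes), and for 8 they were below in both (17.3% of all tested genes). The choice of the chromosome fixed the direction of the larger count.

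Set beside the other autosomes, chromosome 13 had the highest GC-matched median of the 22 in both comparisons, as its choice would have it. Untreated, the next were chromosome 4 (0.47 untreated and 0.46 with PAE, log2), chromosome 6 (0.37 and 0.47), chromosome 18 (0.35 and 0.08) and chromosome 8 (0.28 and 0.34). The lowest were chromosome 16 (−0.55 and −0.61), chromosome 20 (−0.50 and −0.31) and chromosome 21 (−0.40 and −0.65). The share of genes above 0 was 78.0% and 78.5% on chromosome 13, against 62.7% and 65.9% on chromosome 4. The median GC content of the chromosome 4 genes was 42.5%.

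**Figure D2:**
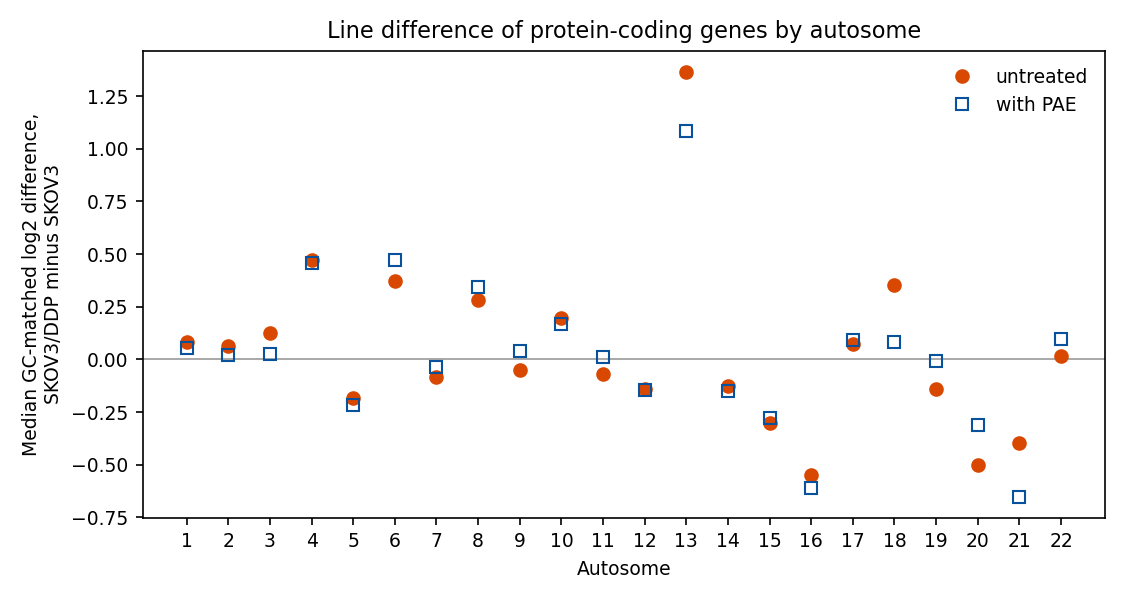
Median GC-matched log2 difference between the lines (SKOV3/DDP minus SKOV3) of the tested protein-coding genes of each autosome, untreated (filled circles) and with PAE (open squares). Chromosome 13 stands at 1.36 and 1.08, and the other 21 autosomes lie between −0.65 and 0.47.

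Along the chromosome, the median member was higher in SKOV3/DDP in every stretch of 10 Mb that held at least 5 of them. The median GC-matched log2 difference of the 42 members from 20 to 30 Mb was 1.61 untreated and 1.21 with PAE. It was lower from 30 to 40 Mb (24 members, 0.71 and 0.32) and from 40 to 50 Mb (41 members, 0.71 and 0.73). The 16 members from 50 to 60 Mb were at 1.24 and 0.80, the 17 from 70 to 80 Mb at 1.14 and 1.02, and the 18 from 90 to 100 Mb at 1.35 and 0.93. Untreated, the end of the long arm was highest, with the 17 members from 100 to 110 Mb at 2.53 and the 27 beyond 110 Mb at 1.96. With PAE these were at 0.99 and 1.78, the last being the highest of the chromosome. The last stretch is also rich in GC, with a median of 52.5%, and over the whole chromosome the 35 members above 50% GC had medians of 2.19 and 1.70, against 1.18 and 1.04 for the others. Position and GC content cannot be told apart there.

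The sparse stretches are given gene by gene. All 4 tested members of the 6 below 20 Mb (ZMYM2, MPHOSPH8, PSPC1 and ZMYM5, which encode nuclear proteins) were above 0 in both comparisons, with medians of 1.59 and 1.19. From 60 to 70 Mb the single tested member TDRD3, a Tudor domain protein, was at 1.05 and 1.15. Between 80 and 90 Mb there were 2 tested members that went apart. SPRY2, an inhibitor of receptor tyrosine kinase signalling, was higher in SKOV3/DDP (2.02 and 1.58), while SLITRK6, a neuronal membrane protein, had no count in the 6 SKOV3/DDP libraries. The stretch that was lowest with PAE, 30 to 40 Mb, was uneven. In windows of 5 Mb the 12 members from 30 to 35 Mb had medians of 0.43 untreated and −0.46 with PAE, and the 12 from 35 to 40 Mb had 1.38 and 1.51.

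**Figure D3:**
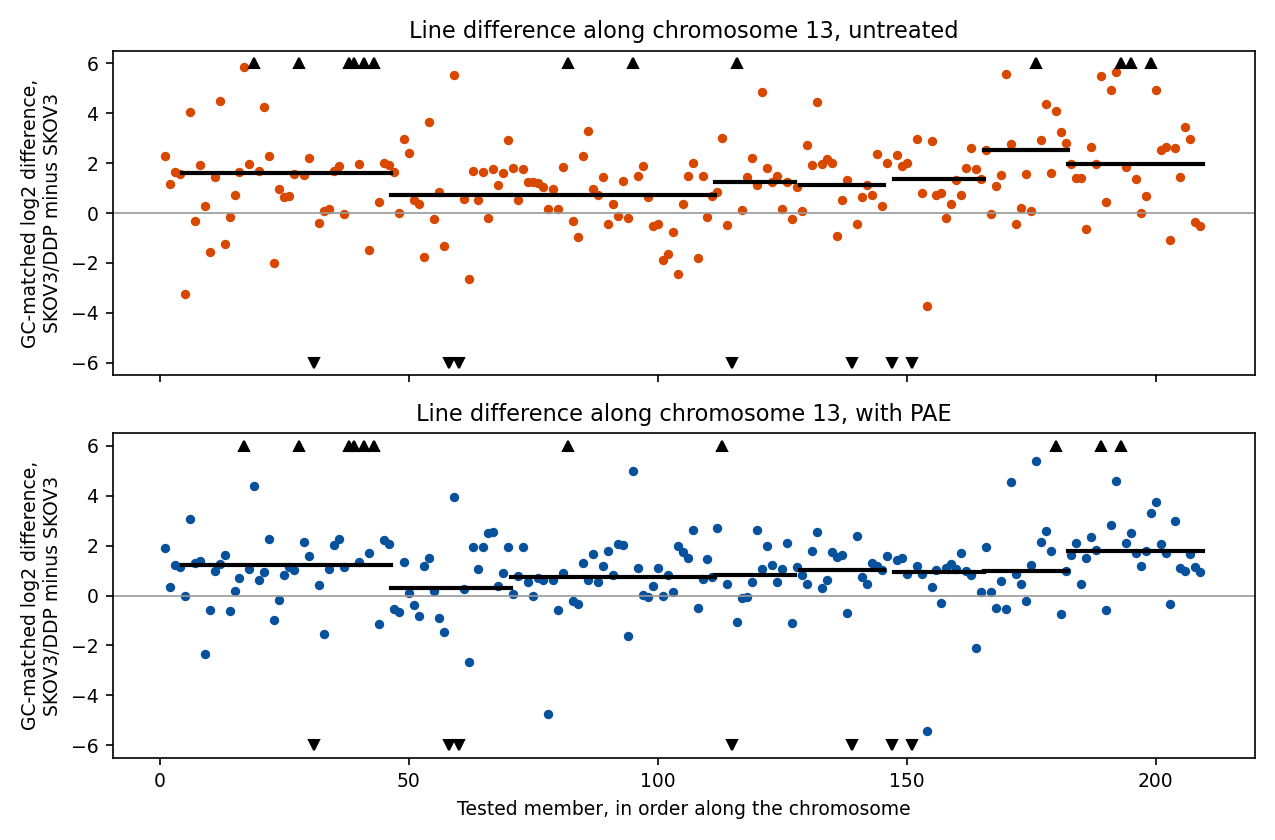
GC-matched log2 difference between the lines for the 209 tested members with a known GC content, in their order along chromosome 13, untreated in the upper and with PAE in the lower panel. Horizontal bars are medians of 10 Mb windows with at least 5 members and triangles are values beyond the axis. The bars lie above 0 throughout, lowest in the windows from 30 to 50 Mb, with single members far above and below them.

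A small number of members were present in 1 line and without a count in the other. They were picked out after their values were seen. The share of all tested genes without a count in 1 line is not given here, so nothing is read from how many they are. FGF9, PDX1, URAD, FLT1, SLC46A3 and DLEU7 had no count in any of the 6 SKOV3 libraries, and WASF3, NBEA, SPART, FAM124A and SLITRK6 had none in the 6 SKOV3/DDP libraries. A group without a count can still hold up to 3 counts of its 3 libraries, which is 0.0862 CPM in untreated SKOV3, 0.0537 CPM in SKOV3 with PAE, 0.0606 CPM in untreated SKOV3/DDP and 0.0501 CPM in SKOV3/DDP with PAE. The folds given as bounds set the empty group to this limit.

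PDX1, FLT1, SLC46A3 and URAD lie within 1 Mb of each other. PDX1 (chr13:27919982-27926313, plus strand) encodes a homeodomain factor of the pancreas and duodenum and was at 29.9, 11.9 and 25.6 CPM in untreated SKOV3/DDP and at 24.4, 22.2 and 22.5 CPM with PAE. It was at least 264-fold higher than in SKOV3 without PAE and at least 429-fold higher with it. FLT1 (chr13:28300346-28495128, minus strand), a receptor for vascular endothelial growth factor, was at 57.7, 44.4 and 55.5 CPM and, with PAE, at 22.1, 26.2 and 29.9 CPM (at least 612-fold and 483-fold higher). Of the 4 endothelial markers, CDH5 and KDR were at 0 in every group. PECAM1 was at 4.29 CPM in SKOV3 and 0.872 CPM in SKOV3/DDP untreated, and at 7.66 and 0.376 CPM with PAE. VWF was at 0.258 and 0.913 CPM untreated and at 0.0901 and 0.141 CPM with PAE. SLC46A3 (chr13:28700080-28718970, minus strand), a lysosomal membrane transporter, was at 77.6, 79.5 and 73.4 CPM and at 48.5, 86.5 and 53.4 CPM (at least 891-fold and 1183-fold higher). URAD, an enzyme of urate breakdown, was at 16.8, 16.0 and 19 CPM and at 5.35, 4.51 and 2.86 CPM (at least 200.4-fold and 80.0-fold higher). FGF9, a fibroblast growth factor from the start of the long arm, held 173 and 128 counts in the SKOV3/DDP groups (at least 40.5-fold and 39.9-fold higher), and DLEU7 held 24 and 49 (at least 5.62-fold and 15.3-fold higher). PDX1 was high in the same 6 libraries in which the sum of the intestinal markers was high. Most of that sum came from CDH17 (339 CPM untreated and 145 CPM with PAE in SKOV3/DDP), and several markers of the list were near 0. The part of such cells or programmes in the level of PDX1 was not tested.

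DNAJC15 (chr13:43023586-43114213, plus strand), a mitochondrial J protein also known as MCJ, was nearly as separated. It had no count in untreated SKOV3 and 1 count in SKOV3 with PAE, against 59.3, 43.7 and 72.8 CPM in untreated SKOV3/DDP and 40.6, 44.4 and 26.3 CPM in SKOV3/DDP with PAE. The untreated lines differed at least 682-fold, and with PAE they differed 2102-fold (95% counting interval 377 to 83058).

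The members without a count in SKOV3/DDP are spread over the chromosome. SPART (chr13:36301638-36370180, minus strand), or spartin, which acts in endosomal and lipid droplet traffic, was at 9.67, 4.26 and 5.93 CPM in untreated SKOV3 and at 79.1, 60.0 and 84.3 CPM in SKOV3 with PAE (at least 109-fold and 1479-fold lower in SKOV3/DDP). WASF3 (chr13:26539139-26688948, plus strand), which promotes actin branching, was at 4.61, 1.79 and 3.31 CPM and at 21.3, 20.5 and 20.4 CPM (at least 53.1-fold and 413-fold lower). NBEA, or neurobeachin, a scaffold of membrane traffic, had a mean of 1.3 ± 0.564 CPM and 9.96 ± 1.21 CPM (at least 21.3-fold and 198-fold lower). FAM124A held 201 and 305 counts in the 3 libraries of SKOV3 and of SKOV3 with PAE (at least 95.3-fold and 109-fold lower), and SLITRK6 held 5 and 61 (at least 2.37-fold and 21.8-fold lower). SPART rose with PAE in SKOV3 as fitted, with a log2 fold change of 3.49 (SE 0.34, adjusted p = 1.97e-06) by edgeR, and had 0.43 (adjusted p = 0.143) with the GC trend of the libraries removed.

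In all, 99 members had a mean of at least 10 CPM in SKOV3/DDP both without and with PAE, no overlap between the lines in either comparison and GC-matched differences above 0 in both (11.9% of all tested genes with a known GC content). The same rule with at least 10 CPM in SKOV3 and differences below 0 was met by 2 members (8.77% of those genes). Under this rule, the 10 with the largest of the smaller of their 2 GC-matched differences were PDX1, FLT1, SLC46A3 and DNAJC15, described above, and F10, EFNB2, MCF2L, DCLK1, ADPRHL1 and GRTP1. URAD, ATP8A2 and TNFRSF19 in the higher direction and SPART and WASF3 in the lower one were below 10 CPM in 1 of the groups concerned and so were not ranked. F10, coagulation factor X (chr13:113122799-113149529, plus strand), was at 1.15, 1.02 and 1.86 CPM in untreated SKOV3 and 49.7, 55.3 and 61.3 CPM in untreated SKOV3/DDP. With PAE it was at 0.291, 0.559 and 0.263 CPM and 48.2, 40.4 and 30.0 CPM. No library of a line reached the other line, as the rule required, and the GC-matched log2 differences were 7.30 and 6.66.

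EFNB2, the membrane ligand ephrin-B2 (chr13:106489745-106535662, minus strand), was at 0.975, 0.937 and 1.78 CPM in untreated SKOV3, 4.65, 1.32 and 0.316 CPM in SKOV3 with PAE, 119, 69.4 and 84.7 CPM in untreated SKOV3/DDP and 67.3, 55.0 and 147 CPM in SKOV3/DDP with PAE. DCLK1, a kinase that binds microtubules (chr13:35768652-36131939, minus strand), was at 0.177, 0.341 and 0.424 CPM, 2.44, 1.32 and 1.42 CPM, 84.8, 91.9 and 62.7 CPM and 26.2, 30.3 and 30.4 CPM in the same order of groups. Both were below 5 CPM in all SKOV3 libraries and above 25 CPM in all SKOV3/DDP libraries. The GC-matched log2 differences were 6.07 and 5.39 for EFNB2, and 5.52 and 3.95 for DCLK1.

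MCF2L, a guanine nucleotide exchange factor, ADPRHL1, an ADP-ribosylhydrolase-like protein of muscle, and GRTP1, a TBC domain protein, lie with F10 in 1 stretch near the end of the long arm (112894378 to 113453488). MCF2L had a mean of 1.36 ± 0.674 CPM in untreated SKOV3 and 23.8 ± 1.40 CPM in untreated SKOV3/DDP, and ADPRHL1 of 3.47 ± 0.479 CPM and 27.7 ± 3.97 CPM. With PAE, MCF2L had 0.530 ± 0.157 CPM and 13.2 ± 2.78 CPM, and ADPRHL1 had 0.993 ± 0.246 CPM and 13.6 ± 1.00 CPM. The GC-matched log2 differences were 5.64 and 4.61 for MCF2L and 4.94 and 3.73 for ADPRHL1. GRTP1 had 1.04 ± 0.197 CPM and 24.6 ± 3.63 CPM without PAE and 1.5 ± 0.501 CPM and 15.9 ± 4.08 CPM with it, and it overlaps the far more abundant LAMP1 on the other strand. Since the strand of counting is not given in the sources used here, reads of LAMP1 in GRTP1 cannot be told apart from its own.

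The 2 members that met the rule in the lower direction were DZIP1 and EBPL. DZIP1, a zinc finger protein of cilium formation (chr13:95578202-95644706, minus strand), was at 43.1, 37.6 and 43.3 CPM in untreated SKOV3 and 0, 0.253 and 0 CPM in untreated SKOV3/DDP. With PAE it was at 68.3, 60.6 and 66.1 CPM and 0.0981, 0.0940 and 0.275 CPM, which was near 0 in all SKOV3/DDP libraries. EBPL, a protein related to a sterol isomerase (chr13:49660674-49691487, minus strand), differed far less. It was at 90.4, 98.9 and 93.7 CPM in untreated SKOV3 and 60.7, 61.7 and 70.4 CPM in untreated SKOV3/DDP, and at 30.0, 32.7 and 33.8 CPM and 27.0, 24 and 18.3 CPM with PAE. The fitted log2 difference of EBPL between the untreated lines was −0.55, and 0.14 when libraries were scaled by their totals only, so its direction depends on the scaling.

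**Figure D4:**
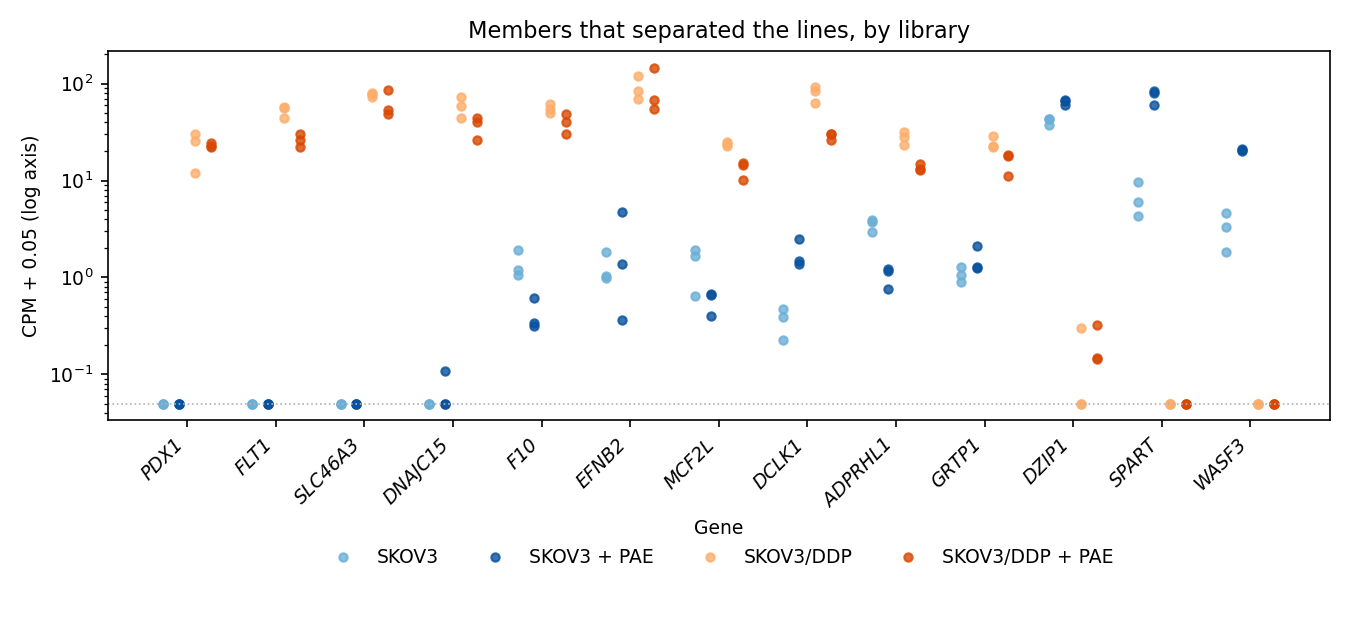
CPM in each of the 12 libraries (log axis, with 0.05 added) for the members ranked by the rule in each direction except EBPL, which is not shown, and for SPART and WASF3. Points are libraries coloured by group and the dotted line marks 0 CPM. PDX1, FLT1 and SLC46A3 lie on that line in all 6 SKOV3 libraries, and SPART and WASF3 lie on it in all 6 SKOV3/DDP libraries.

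The members were also grouped by their known role. For each group the medians over its tested members are given as fitted, beside 0.54 untreated and 0.06 with PAE (log2) over all tested genes, and then GC-matched, beside 1.36 and 1.08 over all members. Of 18 tested members of cell cycle, mitosis and DNA repair, 12 were above 0 untreated and 14 with PAE in the GC-matched difference. The fitted medians were 3.00 untreated and 0.99 with PAE, and the GC-matched ones 0.12 and 0.95. PARP4, the poly(ADP-ribose) polymerase of vault particles, was at 28.6, 8.10 and 18.8 CPM in untreated SKOV3 and 376, 286 and 327 CPM in untreated SKOV3/DDP, and the GC-matched log2 differences were 2.29 and, with PAE, 2.27. LIG4, the ligase of non-homologous end joining, was at 0.355, 0.256 and 0.170 CPM and 44.3, 41.8 and 51.2 CPM untreated and at 4.82, 4.98 and 6.73 CPM and 28.3, 42.9 and 33.1 CPM with PAE. LIG4 was higher in SKOV3/DDP in all these libraries, and its GC-matched log2 differences were 4.37 and 2.60. RFC3, a subunit of the clamp loader of replication, went the other way with PAE, at 54.7, 54.2 and 83.4 CPM in SKOV3 and 20.7, 24.2 and 27.9 CPM in SKOV3/DDP, while untreated it was at 6.12, 3.07 and 6.61 CPM and 16.3, 12.8 and 16.2 CPM. GC-matched, RFC3 was lower in SKOV3/DDP in both (−1.31 and −1.47).

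Of the 14 tested transcription factors and cofactors, 13 were above 0 untreated and 12 with PAE in the GC-matched difference. Their medians were 3.48 and 0.77 as fitted and 1.59 and 0.72 GC-matched. TSC22D1, a leucine zipper factor, had means of 65.5 ± 14 CPM and 694 ± 194 CPM untreated and 198 ± 53.9 CPM and 314 ± 24.4 CPM with PAE, and GC-matched log2 differences of 3.28 and 0.62. HMGB1, an abundant chromatin protein, was higher in SKOV3/DDP untreated (40.0 ± 1.80 CPM against 328 ± 75.1 CPM) and lower with PAE (373 ± 51.9 CPM against 240.3 ± 14.2 CPM). Its GC-matched log2 difference between the untreated lines was 0.00, and its 29 pseudogene copies held 37.6 CPM in all on average, so reads may be split between them.

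Of 15 tested members of RNA processing and decay, of which MBNL2 was the most abundant, 11 were above 0 untreated and 13 with PAE in the GC-matched difference. The fitted medians were 3.36 and 1.20, and the GC-matched ones 0.97 and 1.14. MPHOSPH8, a subunit of the HUSH silencing complex, was at 7.98, 2.90 and 7.20 CPM in untreated SKOV3 and 110.1, 112 and 103 CPM in untreated SKOV3/DDP, and at 31.7, 26.9 and 33.8 CPM and 108, 134 and 118 CPM with PAE. The lines did not overlap in either comparison, and the GC-matched log2 differences were 2.30 and 1.91. INTS6, a subunit of the Integrator complex, had GC-matched log2 differences near 0, at 0.12 and −0.11. The list also holds DGKH, a diacylglycerol kinase, which is not an RNA processing factor.

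Of the 17 tested members of the ubiquitin and proteasome list, 13 were above 0 untreated and 14 with PAE in the GC-matched difference. Their medians were 3.45 and 1.20 as fitted and 1.14 and 1.17 GC-matched. The most abundant was POMP, the proteasome maturation protein, with 74.0 ± 33.2 CPM in untreated SKOV3 and 219 ± 17.2 CPM in untreated SKOV3/DDP. With PAE it had 75.2 ± 12.7 CPM and 258 ± 37.7 CPM. GC-matched, the direction of POMP differed, at −1.5 untreated and 1.72 with PAE on the log2 scale. UBL3, a ubiquitin-like protein of membranes, had GC-matched log2 differences of 1.93 and 2.07. The list also holds KCTD12, at 2.04, 0.852 and 2.97 CPM in untreated SKOV3 and without a count in untreated SKOV3/DDP, at least 32.2-fold lower. With PAE it held 590 counts in SKOV3 and 1 count in SKOV3/DDP, which is 632-fold lower (95% counting interval 113 to 24987).

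Among growth factors, receptors and signalling adaptors, 15 of 25 members were tested. Of these, 14 were above 0 untreated and 15 with PAE in the GC-matched difference. The fitted medians were 3.74 (3.61 with empty groups set to their limit) and 1.67, and the GC-matched ones 2.82 (2.02 with that limit) and 1.58. GAS6, the ligand of the TAM receptors, was the most abundant, with 213 ± 14.2 CPM and 140.2 ± 42.4 CPM untreated and 40.9 ± 12.8 CPM and 92.3 ± 20.2 CPM with PAE. GC-matched, GAS6 was higher in SKOV3/DDP in both (1.42 and 1.11), although its untreated CPM were lower there. RAP2A, a Ras-related GTPase, had smaller GC-matched log2 differences, 0.71 and 1.03. Receptor genes of immune and neuronal cells, such as FLT3, GPR18 and HTR2A, had too few counts to be tested.

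Of 23 adhesion, junction and matrix genes, 8 were tested, and the protocadherins PCDH8, PCDH9, PCDH17 and PCDH20 and the matrix gene POSTN were among the others, which had too few counts. In the GC-matched difference 5 were above 0 untreated and 2 with PAE. Their medians were 1.28 and −0.76 as fitted and 0.64 and −0.79 GC-matched. GJB2, or connexin 26, was at 1.42, 0.767 and 1.10 CPM in untreated SKOV3 and 53.3, 68.1 and 58.2 CPM in untreated SKOV3/DDP. With PAE it was at 11.5, 4.22 and 0.631 CPM and 43.5, 60.0 and 43.4 CPM, with a wide spread in SKOV3 but no overlap, and GC-matched log2 differences of 4.06 and 3.06. LMO7, an adherens junction protein, had GC-matched log2 differences of opposite sign, 1.31 untreated and −0.68 with PAE.

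Of 13 transporters and pumps, 8 were tested, and all 8 were above 0 in the GC-matched difference without and with PAE. The fitted medians were 3.73 and 2.02, and the GC-matched ones 2.33 and 1.96. SLC7A1, the cationic amino acid transporter, was at 128, 57.3 and 105 CPM in untreated SKOV3 and 136, 446 and 122 CPM in untreated SKOV3/DDP. With PAE it was at 103, 126 and 145 CPM and 517, 444 and 893 CPM. The untreated libraries overlapped in range apart from 1 SKOV3/DDP library that was far above the others, and the treated ones were well apart. The GC-matched log2 differences of SLC7A1 were 2.02 and 2.22. SLC25A30, a mitochondrial carrier, had smaller GC-matched log2 differences, 0.37 and 0.84.

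The list of metabolic enzymes and housekeeping proteins had 25 of 26 members tested, of which 21 were above 0 in the GC-matched difference without PAE and 21 with it. Their medians were 3.54 and 1.06 as fitted and 1.36 and 1.00 GC-matched. It holds enzymes such as SUCLA2 and PCCA of mitochondrial metabolism, and also proteins that are not metabolic enzymes, such as HSPH1, HMGB1, GRTP1 and the nuclear import factor IPO5. Of these, LAMP1, a lysosomal membrane glycoprotein, had 491 ± 96.9 CPM and 668 ± 94.5 CPM untreated and 209 ± 17.9 CPM and 726 ± 225 CPM with PAE (GC-matched 0.67 and 1.78, log2). ITM2B, a membrane protein processed by furin, had a GC-matched log2 difference of −1.89 untreated and −0.02 with PAE. The 8 genes listed around the coagulation factors had 6 tested, of which 6 were above 0 untreated and 5 with PAE in the GC-matched difference. The fitted medians were 4.74 (3.96 with empty groups set to their limit) and 3.17, and the GC-matched ones 6.47 (4.95 with that limit) and 3.12. Besides F10, PROZ, or protein Z, and the serpin SERPINE3, this list holds MCF2L, ADPRHL1 and CLYBL, a mitochondrial lyase, none of which acts in coagulation. F7 and CPB2 had too few counts to be tested.

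In SKOV3, PAE changed most members as fitted, and most of these upward, but this count moved with the GC trend. By the quasi-likelihood test of edgeR (Benjamini-Hochberg adjusted), 169 of 211 members passed, 152 higher and 17 lower with PAE, where 75.3% of all tested genes passed, 42.6% as higher and 32.7% as lower. The median log2 fold change was 2.4, and relative to other-autosome genes of like GC content it was 0.12, with 114 members above 0 and 95 below. Members richer in GC had lower fold changes, with a Spearman correlation of −0.63 across the 209 members and −0.80 across the coding genes of the other autosomes. Once smooth curves of GC content and of gene length were taken out of every library, 91 members passed, 56 higher and 35 lower, where 50.2% of all genes in that fit passed, 28.5% as higher and 21.7% as lower. Since all 3 untreated SKOV3 libraries carried the trend, the trend and the absence of PAE cannot be told apart in SKOV3.

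**Figure D5:**
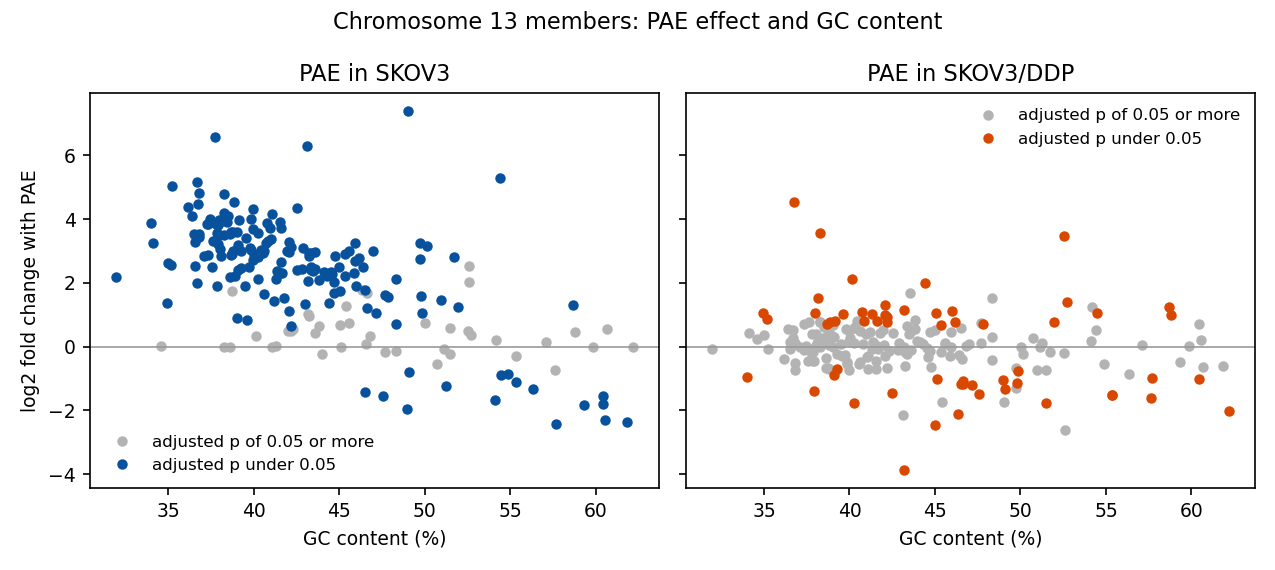
Log2 fold change with PAE of the chromosome 13 members against their GC content (%), in SKOV3 (left) and SKOV3/DDP (right). Coloured points have an adjusted p under 0.05 by edgeR, and grey points do not. In SKOV3 the members below 40% GC lie mostly between 2 and 5 while most of those above 55% lie below 0, and in SKOV3/DDP the slope is slight (Spearman correlation −0.19).

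Of the members whose higher group reached a mean of 10 CPM and whose groups were apart, the 5 with the largest rise in SKOV3 were PIBF1, N4BP2L2, MBNL2, USPL1 and HSPH1. PIBF1, a protein of the centrosome (chr13:72782133-73016461, plus strand), was at 0.532, 0.426 and 0.170 CPM untreated and at 13.5, 11.7 and 16.0 CPM with PAE. By the quasi-likelihood test of edgeR (Benjamini-Hochberg adjusted), this was a log2 fold change of 5.17 (SE 0.31, adjusted p = 1.11e-08), and 2.26 (adjusted p = 2.99e-05) with the GC trend removed. MBNL2, a regulator of splicing, was at 5.85, 3.49 and 3.39 CPM and 144, 92.8 and 124 CPM, a log2 fold change of 4.83 (SE 0.42, adjusted p = 6.81e-08) in the same test and 1.53 (adjusted p = 0.00167) without the trend. Both rose with and without the correction, by less once the trend was removed.

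N4BP2L2 rose from 1.64 ± 0.353 CPM to 54.8 ± 7.88 CPM, and its log2 fold change was 5.05 as fitted and 1.52 (adjusted p = 2.33e-04) by edgeR without the trend. USPL1, a SUMO protease, rose from 1.09 ± 0.587 CPM to 22.5 ± 16.4 CPM, with 4.35 as fitted and 1.95 (adjusted p = 0.00493) by edgeR without the trend. HSPH1, a heat shock protein of the HSP110 family, was at 33.6, 14.9 and 24.2 CPM and at 1057, 237 and 168 CPM, where 1 treated library was far above the other 2. Its log2 fold change of 4.33 became 1.45 (adjusted p = 0.126) by edgeR without the trend and no longer passed.

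Under the same limits, those that fell most in SKOV3 were RAB20, GAS6, CRYL1, UBAC2 and EBPL. CRYL1, a sugar dehydrogenase, was at 22.8, 28.4 and 28.9 CPM untreated and 8.72, 6.60 and 5.52 CPM with PAE, a log2 fold change of −1.94 (SE 0.24, adjusted p = 2.25e-06) by the quasi-likelihood test of edgeR (Benjamini-Hochberg adjusted), and −2.07 (adjusted p = 5.52e-06) with the trend removed. UBAC2, a protein of the endoplasmic reticulum, fell by 1.66 on the log2 scale, and EBPL by 1.55, and both still fell without the trend (−1.09 (adjusted p = 1.19e-04) and −1.46 (adjusted p = 4.43e-06) by edgeR). The GC-rich genes RAB20, a small GTPase, and GAS6 fell by 2.42 and 2.38 as fitted. With the trend removed their log2 fold changes were 0.01 and 0.11, so the direction of neither was kept.

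By role, the members that rose and fell with PAE in SKOV3 were counted as fitted, where 42.6% of all tested genes rose and 32.7% fell, and then with the trend removed, where 28.5% rose and 21.7% fell. Of the 18 of cell cycle and repair, 14 rose and none fell as fitted, and 6 rose and 5 fell without the trend. The 14 transcription factors had 11 and 0 as fitted and 6 and 1 without it, and the 15 of RNA processing had 14 and 0 against 4 and 4. Of the 17 of the ubiquitin list, 15 rose and 1 fell as fitted and 5 rose and 3 fell without the trend. The 25 of metabolism had 19 and 5 against 7 and 6, the 15 of signalling had 7 and 1 against 1 and 2, and the 8 of adhesion had 4 and 1 against 0 and 1. The 8 transporters had 4 and 0 against 2 and 0, and the 6 tested around the coagulation factors had 2 and 3 against 2 and 0. LIG4 rose by 4.37 on the log2 scale as fitted and by 1.29 (adjusted p = 0.0117) without the trend by edgeR, and KLF5, a Krüppel-like factor of epithelia, rose by 2.99 and 1.94 (adjusted p = 1.09e-05).

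In SKOV3/DDP, fewer members changed with PAE, and in both directions. By the quasi-likelihood test of edgeR (Benjamini-Hochberg adjusted), 58 of 211 passed, 32 higher and 26 lower, where 26.4% of all tested genes passed, 11.8% as higher and 14.7% as lower. The median log2 fold change was 0.03 as fitted and −0.10 relative to genes of like GC content. Scaled by library totals only, 52 were higher and 20 lower, without a share of all genes to set beside them. With the GC trend removed 29 were higher and 38 lower (15.3% and 16.5% of all genes in that fit). Leaving out 1 library in turn gave 32 to 70 members, the fewest without the first SKOV3/DDP library, so the count depended on single libraries. Several of the counts by role given below also fell without the third. The second untreated library stood apart from the other 2 for some members, such as HSPH1 (250, 2220 and 255 CPM).

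TNFSF13B, the B cell activating factor BAFF (chr13:108268240-108308484, plus strand), rose most of the members whose higher group reached a mean of 10 CPM and whose groups were apart. It was at 0.577, 1.20 and 1.41 CPM untreated and at 26.3, 25.8 and 21.5 CPM with PAE, a log2 fold change of 4.53 (SE 0.38, adjusted p = 2.64e-05) by the quasi-likelihood test of edgeR (Benjamini-Hochberg adjusted). The 3 treated libraries were all more than 10 times above the untreated ones. In SKOV3 it had no count untreated and 9 counts in all with PAE. The others with the largest rise were CDADC1, a deaminase of cytidine nucleotides, OBI1 and RNF6, both ubiquitin ligases, and IRS2, an adaptor of the insulin receptor. CDADC1 was at 8.71, 9.53 and 7.96 CPM and 38.8, 38.9 and 36.0 CPM, a log2 fold change of 2.12 (SE 0.24, adjusted p = 7.46e-05) in the same edgeR test. RNF6 was at 102, 109 and 92.1 CPM and 222, 238 and 294 CPM, with a log2 fold change of 1.31, and OBI1 rose from 11.8 ± 2.33 CPM to 34.0 ± 6.36 CPM. None of these 4 genes overlapped between the groups, as the rule for naming them required. IRS2 rose from 33.2 ± 11.3 CPM to 78.5 ± 23.8 CPM (adjusted p = 0.0197 by edgeR), and it no longer passed when the first or the third SKOV3/DDP library or the third library with PAE was left out (adjusted p of 0.0613, 0.0760 and 0.0701 by edgeR).

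Under the same limits, the members that fell most in SKOV3/DDP were TNFRSF19, TMTC4, URAD, LMO7 and CLYBL. TNFRSF19, the receptor TROY (chr13:23570248-23676093, plus strand), was at 85.0, 21.2 and 84.7 CPM untreated and at 3.58, 3.99 and 5.50 CPM with PAE, a log2 fold change of −3.87 (SE 0.62, adjusted p = 6.55e-04) by the quasi-likelihood test of edgeR (Benjamini-Hochberg adjusted). All untreated libraries were above all treated ones, as the rule for naming it required, though 1 untreated library was far below the other 2. TMTC4, which takes part in O-mannosylation in the endoplasmic reticulum, was at 41.6, 19 and 38.0 CPM and 4.46, 6.20 and 7.10 CPM, and fell by 2.47 on the log2 scale. URAD fell by 2.02, CLYBL by 1.78 and LMO7 by 1.78, the last from 108 ± 21.1 CPM to 31.5 ± 2.47 CPM. EBPL, which fell in SKOV3, fell by 1.48 in SKOV3/DDP as well. FLT1 also fell there, by 1.01 (adjusted p = 0.0112 by edgeR), whereas PDX1 had a log2 fold change of 0.04 (adjusted p = 0.974). With the GC trend removed, TNFSF13B, CDADC1, OBI1, RNF6 and IRS2 and the 5 members that fell most kept their direction and an adjusted p under 0.05 by edgeR.

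By role, the members that changed with PAE in SKOV3/DDP were counted beside 11.8% of all tested genes that rose and 14.7% that fell. Of the 17 of the ubiquitin list 5 rose and none fell, among them RNF6 and UBL3 (a log2 fold change of 0.82). Of the 15 signalling genes 3 rose and 4 fell, TNFSF13B and IRS2 among the first and FLT1, TNFRSF19 and DCLK1 (a log2 fold change of −1.46) among the second. The 25 of metabolism had 4 in each direction, the 8 transporters 2 in each, and the 14 transcription factors 2 that rose and 1 that fell. Of the 8 adhesion genes and of the 6 around the coagulation factors, none rose and 2 fell in each. Of the 18 of cell cycle and repair 1 rose, and none of the 15 of RNA processing passed by edgeR. Of these, 5 had an unadjusted p under 0.05, all higher, and 2 passed by DESeq2. With the trend removed, where 15.3% of all genes in that fit rose and 16.5% fell, 1 of cell cycle and repair rose and 4 fell. The transcription factors had 1 and 3, metabolism 4 and 7, the transporters 2 and 3 and RNA processing 0 and 1. The ubiquitin list had 4 and 0, signalling 3 and 4, and adhesion and the coagulation list 0 and 2 each. Several of the counts as fitted moved when 1 library was left out. Without the first SKOV3/DDP library, 3 signalling genes, 4 of metabolism, 3 of the ubiquitin list, 1 transporter, 1 transcription factor and 1 adhesion gene passed and none of cell cycle and repair. Without the third, 3 signalling genes, 5 of metabolism, 3 of the ubiquitin list and 1 transporter passed and none of cell cycle and repair. Leaving out 1 of the other 10 libraries gave 2 to 5 transporters, 1 to 5 transcription factors, 3 to 5 of the ubiquitin list, 1 to 3 adhesion genes, 0 to 3 of cell cycle and repair and 0 to 2 of RNA processing. Of these 10, the second SKOV3/DDP library when left out gave more signalling genes (8) and more of metabolism (11). It gave fewer transporters (3), fewer of the ubiquitin list (4) and fewer adhesion genes (1).

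The effect of PAE itself differed between the lines for 149 of 211 members by the interaction term of the same edgeR fit, where 62.9% of all tested genes passed. It was more positive in SKOV3/DDP for 12 members and more negative for 137 (25.5% and 37.4% of all tested genes). This term equals the line difference with PAE minus the untreated one, whose member medians were 1.14 and 3.41 as fitted. The skew is therefore not a result apart from those line differences, and nothing is read from it. The median difference of the PAE effect was −2.30 on the log2 scale as fitted and −0.23 relative to genes of like GC content. With the trend removed 85 passed, 36 more positive and 49 more negative (18.9% and 22.9% of all genes in that fit). The most negative were MBNL2 (−5.55 on the log2 scale), KATNAL1 (−5.20), a katanin subunit, and N4BP2L2 (−5.13). KATNAL1 was at 1.51, 1.53 and 1.78 CPM and 24.1, 19.7 and 23.9 CPM in SKOV3 without and with PAE, and at 44.8, 31.2 and 48.1 CPM and 14.5, 17.3 and 15.3 CPM in SKOV3/DDP, so it rose in 1 line and fell in the other as fitted. With the trend removed its change in SKOV3 was 0.44 (adjusted p = 0.175) by edgeR and in SKOV3/DDP −1.59 (adjusted p = 2.43e-04).

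The most positive differences were those of LOC101928841, TMEM255B and NAXD. NAXD, which repairs hydrated NAD(P)H, was at 45, 58.0 and 51.1 CPM and 26.1, 27.7 and 30.1 CPM in SKOV3, and at 55.9, 66.5 and 61.2 CPM and 129, 119 and 129 CPM in SKOV3/DDP. It fell in SKOV3 and rose in SKOV3/DDP, and the difference of 1.92 on the log2 scale (adjusted p = 1.22e-05 by edgeR) was 0.85 (adjusted p = 0.00673) with the trend removed, where its change in SKOV3 was 0.31 (adjusted p = 0.105), no longer a fall. TMEM255B, a transmembrane protein, went from 6.49 ± 0.395 CPM to 1.31 ± 0.733 CPM in SKOV3 and from 9.58 ± 1.85 CPM to 11.0 ± 1.34 CPM in SKOV3/DDP. LOC101928841, an uncharacterised gene, went from 2.72 ± 1.28 CPM to 0.658 ± 0.349 CPM and from 5.98 ± 2.97 CPM to 12.6 ± 2.28 CPM. It has no GC value in the annotation used, so it could not be set against genes of like GC content.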

How the data were processed

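Poly-A RNA of 12 libraries, 3 per group, was sequenced from NEBNext Ultra libraries. The files that the authors deposited hold read counts per gene as whole numbers, not normalized, with RefSeq positions on GRCh38. HISAT2 2.0.5, StringTie 1.3.3b, DESeq2 and edgeR are named in the submitters' processing notes, without a role. The counting program, annotation release and strand are not given in the sources used here. Samples were grouped by their labels. The 869 rows without a gene name (0.126% to 0.678% of a library's counts) were left out of library sizes and tests. Totals of 14610008 to 18263479 counts set the precision, and a group without a count was given a limit of 3 counts.

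Counts were analysed in R 4.3.3 with edgeR 4.0.16 and limma 3.58.1. Genes were filtered with filterByExpr and scaled by TMM, and 4 groups of 12 libraries entered 1 quasi-likelihood fit of 17133 genes, with Benjamini-Hochberg adjustment and a threshold of 0.05 (all tests two-sided). The standard error of a log2 fold change was derived from its F statistic. GC content came from GENCODE 29 and was known for 91.5% of tested genes, and gene length was the one deposited with the counts. GC-matched values subtract the median of tested other-autosome coding genes in the same of 20 GC bins. For the trend removal, splines (5 df) were fitted to genes whose average log2 CPM reached 2 and entered as offsets. Windows were set by gene start. Promoter windows came from RefSeq (GRCh38.p14). The scripts were tested on simulated data.

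The chromosome, its members, the gene lists and the tests were chosen with earlier results of these data known. Genes were named by a rule. Between the lines it took the 10 of each sign with the largest smaller GC-matched difference of both comparisons, at 10 CPM or more in the higher line and without overlap in both. For PAE it took the 5 of each sign with the largest log2 fold change that passed, at 10 CPM or more and without overlap, and for the interaction 3 of each sign. In each role list it took the most abundant member and those with the largest difference in each direction. Alternatives were other scalings, filters, GC bins and windows, DESeq2 1.42.0, the 6 libraries of a comparison alone, a replicate block, trend removal, the study's criteria of p and fold, and each library left out in turn.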

Additional observations from a re-analysis of the deposited data

Results flagged for a closer look

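The results singled out here are those in which the effect of PAE differed between the lines by the interaction term of the edgeR fit. They are 149 of 211 members of chromosome 13 (70.6%), where 62.9% of all tested genes passed, and the 3 named in each direction. With the GC and length trend removed, 85 of 209 members passed, where 41.8% of all genes in that fit did. This term equals the line difference with PAE minus the untreated one, so the count is not read as a trait of the chromosome. The log2 difference of the PAE effect (SKOV3/DDP minus SKOV3) was 3.13 for LOC101928841, 2.51 for TMEM255B and 1.92 for NAXD, and it was −5.55 for MBNL2, −5.20 for KATNAL1 and −5.13 for N4BP2L2. With the library trends on GC and length taken out, the edgeR values were 1.11 (adjusted p = 0.0428) for TMEM255B, 0.85 (adjusted p = 0.00673) for NAXD, −2.52 (adjusted p = 4.95e-04) for MBNL2, −2.04 (adjusted p = 3.71e-04) for KATNAL1 and −1.88 (adjusted p = 4.31e-04) for N4BP2L2, while LOC101928841 has no GC value. All of these comparisons include the untreated SKOV3 libraries, whose GC trend moved with the absence of PAE, and its part in each difference was tested only by that removal. Groups of 3 libraries are too small for the criterion used here to flag a single outlying library.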

How the results depend on the processing

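Among the alternative settings, shares of all genes are given only with the GC and length trend removed, for the PAE effects and the interaction. Elsewhere the counts show how far a result moved with the setting, and nothing else is read from them. Counts of members passing were within 1.5 times of those reported under all other scalings, filters, tools and single fits tried, with these exceptions. Under the study's criteria (unadjusted p under 0.05, log2 fold change beyond 2) 62 passed between the lines with PAE and 10 for PAE in SKOV3/DDP. With the GC and length trend removed, 91 passed for PAE in SKOV3 and 85 for the interaction, and 88 and 75 with the replicate block as well. The replicate block alone gave 185 and 141 between the lines without and with PAE, 169 and 48 for PAE in SKOV3 and SKOV3/DDP, and 149 for the interaction. Same-numbered libraries did not deviate together (mean correlations of −0.0696 to 0.0456 per pair of groups), so they were not treated as paired. Leaving out each library in turn gave 183 to 190 and 139 to 162 between the lines, 165 to 173 and 32 to 70 for PAE in SKOV3 and SKOV3/DDP (32 without SKOV3/DDP replicate 1, where fewer libraries were tested), and 145 to 154 for the interaction. The GC-matched median between the untreated lines, 1.36 on the log2 scale, was 1.08 without a filter on low counts, 1.21 with at least 10 counts in every library, 1.3 in the 6 libraries alone, 1.29 with the trend removed and 1.3 with trend and block, 3.01 without GC matching, and 1.22 to 1.39 when a library was left out. With PAE the median, 1.08, was 1.14 over members of at least 10 CPM and 1.02 to 1.10 when a library was left out. Of settings chosen after seeing the data, members above 50% GC gave 2.19 untreated and 1.70 with PAE, those at or below 50% gave 1.18 untreated, and those with over 3 counts in every group gave 1.24 untreated. The lowest window median was 0.35 untreated and −0.46 with PAE in 5 Mb windows, a change of sign, and 0.97 and 0.73 in 20 Mb windows. The highest was 3.25 and 2.14, and 2.23 and 1.70. For the lncRNA genes, 53 and 52 passed between the lines without and with PAE when no filter was used, 3 and 7 with at least 10 counts in every library, 21 untreated with trend and block, and 35 to 40 and 34 to 39 when a library was left out. Among named genes, EBPL changed sign between the untreated lines when scaled by library totals (0.14), and GAS6 (0.11, and 0.11 with the block) and RAB20 (0.0067) did so for PAE in SKOV3 with the trend removed. Of the other values of named genes, 970 kept their direction and side of the threshold or moved by less than 1 SD, 36 moved further and 7 no longer passed. Of the list counts, 836 stayed within 1.5 times and 100 did not. The cause of these shifts was not tested beyond what each setting changes. Depth limits members near 0, and 3 libraries per group limit small changes.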

Other observations

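The long non-coding RNA genes of chromosome 13 are a further set from the same chromosome. Of 523, only 50 had enough counts to be tested. Between the untreated lines 29 were higher and 5 lower in SKOV3/DDP, with a median log2 difference of 3.47 against 0.40 over 2109 tested lncRNA genes of the other autosomes, of which 38.5% were higher. With PAE 28 were higher and 6 lower, with a median of 1.73 against 0.09, and 26.2% of those of the other autosomes were higher. These values were not GC-matched. DLEU1, a host transcript of the region that is often deleted in leukaemia, was the most abundant, with 1.76 ± 0.215 and 18.5 ± 3.65 CPM in untreated SKOV3 and SKOV3/DDP and 8.72 ± 1.3 and 29.3 ± 1.17 CPM with PAE (mean ± SD of 3 libraries). DLEU2, which overlaps it on the other strand, differed from this, with 4.46 ± 1.19 and 5.02 ± 2.16 CPM untreated and 17.7 ± 5.05 and 6.23 ± 2.11 CPM with PAE. Both were picked out after their values were seen. The strand of counting is not given in the sources used here, so reads of their shared stretch cannot be told apart.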
